A study of Oryctolagus cuniculus with 6 samples.

Results

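Matrix metalloproteinases (MMPs) and their tissue inhibitors (TIMPs) were followed in the facial nerve of the rabbit. The 10 genes were chosen by symbol and comprised the collagenases MMP1 and MMP13, the stromelysin MMP3, the macrophage elastase MMP12, the gelatinases MMP2 and MMP9, the membrane-type MMP14, and the inhibitors TIMP1, TIMP2 and TIMP3. All 10 were found among the 17396 genes of the files, and all 10 were among the 14003 genes that passed the filter on low counts. Facial nerve RNA came from wild type male Japanese white rabbits, 3 to 4 months old by the study's methods, with 3 rabbits in each of 2 groups and 1 library per rabbit. In the FNI group the main trunk of the facial nerve had been transected. In the FNI+I-125 group the trunk had been transected too, and an iodine-125 seed, a sealed source that gives off low-energy radiation over a long time, had been implanted beside it. Both groups were harvested on day 14, so the groups share the transection and differ by design in the seed. Sham-operated rabbits were not analysed here. The limit of this model is that the RNA is that of a whole piece of tissue, in which fewer cells of a type and less RNA per cell cannot be told apart.

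MMPs are zinc-dependent proteases that are made as inactive proenzymes and are activated by removal of the prodomain. Together they cut most components of the extracellular matrix, and the TIMPs bind to the active site of the mature enzymes and block it. In injured peripheral nerve they are known for opening the blood-nerve barrier, for clearing matrix and myelin debris, and for remodelling the basal lamina along which axons regrow.

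The libraries were of nearly the same depth, from 16031151 to 16798012 counts. Values are given as CPM, counts scaled to a common library size after TMM normalization, where 1 count stood for 0.0586 to 0.0654 CPM. The Schwann cell markers were present in every library, among them the myelin gene PMP22. They summed to 4126 to 33822 CPM with transection alone and to 791 to 3674 CPM with the seed. Some libraries stood apart by transcripts of neighbouring tissue. The 8 skeletal muscle markers, led by ACTA1 and TTN, summed to 4861 and 4316 CPM in FNI+I-125 replicates 1 and 2, and to between 45.6 and 156 CPM in the others. The 6 salivary gland markers, led by DNASE1 and SLC12A2, summed to 48968 CPM in FNI replicate 2, against 66.7 to 3035 CPM elsewhere. FNI replicate 3 held the most Schwann cell transcripts. The keratinocyte sum was highest in FNI+I-125 replicate 3, at 1056 CPM, followed by FNI replicate 1, at 653 CPM. The lists of keratinocytes, endothelium and T cells overlapped between the groups, with 13.3 to 1056 CPM for the keratinocyte markers, led by KRT5 and KRT10, 1761 to 2840 CPM for the endothelial markers, led by VWF and PECAM1, and 1.95 to 42.4 CPM for the T cell markers, led by CD3E and CD4. Where leaving out such a library lost a member's call or moved its log2 fold change by over 1.5 times, that value is given beside it. The part of these tissues in the results was not tested.

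Across the 10 genes, edgeR's quasi-likelihood test called none at an adjusted p under 0.05 with an absolute log2 fold change of at least 1.5. The same rule called 0% of the 14003 genes tested, and limma-voom likewise called none of the members and 0% of the genes. At an unadjusted p under 0.05 with a log2 fold change of at least 1.5, the collagenases MMP1 and MMP13 were higher with the seed, which is 2 of 10 members beside 2.77% of all genes tested. Without the fold threshold 4 members were higher at an unadjusted p under 0.05 (MMP1, MMP13, MMP14 and TIMP1), beside 9.23% of all genes. For 5 members (MMP1, MMP13, MMP9, MMP14 and TIMP1) every FNI+I-125 library lay above every FNI library, beside 14.8% of all genes. No member was lower without overlap, where 12.3% of all genes were. DESeq2 called the 2 collagenases at an adjusted p under 0.05, beside 2.04% of the 14240 genes for which it gave an adjusted p. The median log2 fold change of all genes tested was 0.01. MMP1, MMP13 and MMP3 each had under 10 counts in at least 1 FNI library. They passed the edgeR filter only together with FNI+I-125 libraries, so their entry into the edgeR counts depended in part on the difference itself.

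**Figure D1:**
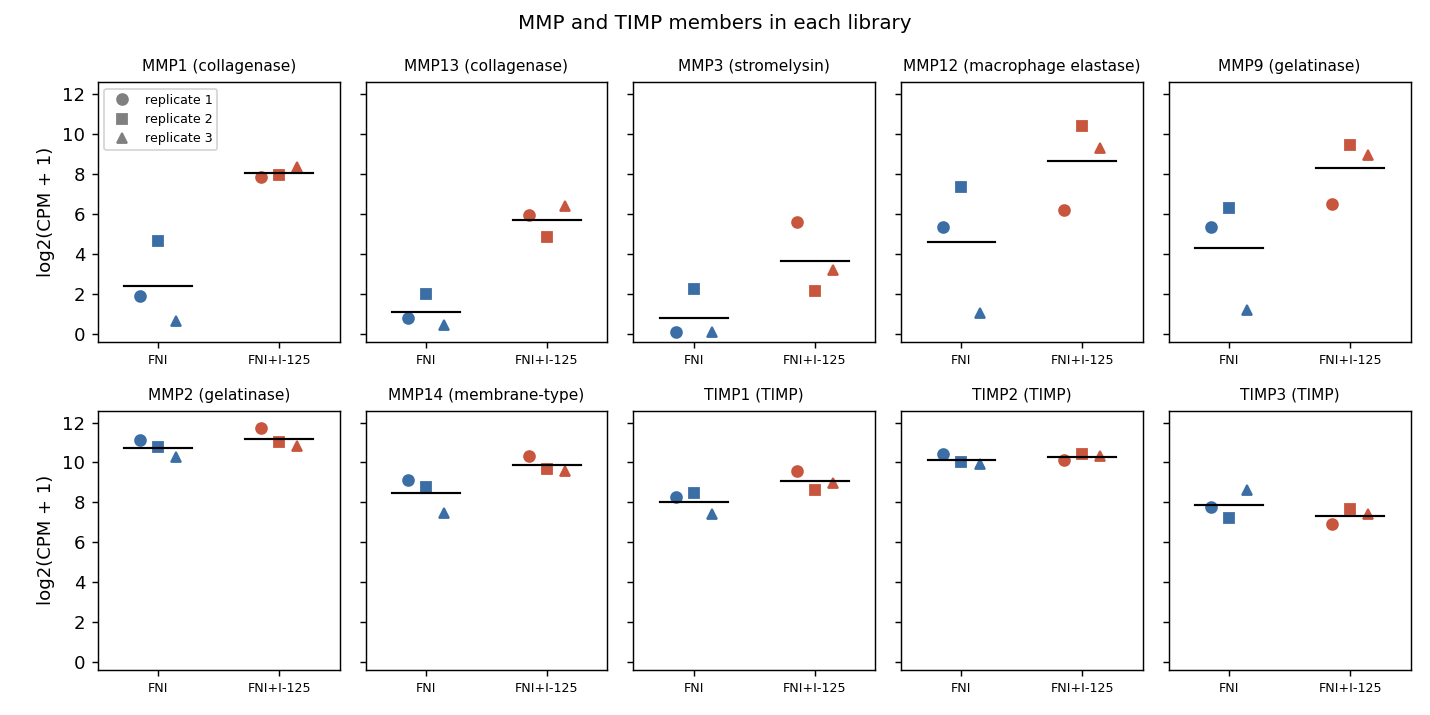
Level of each of the 10 members in each library, as log2(CPM + 1) on the vertical axis, with FNI in blue, FNI+I-125 in red, a symbol for each replicate and a black line at the mean of the 3 libraries. The FNI+I-125 libraries of MMP1 and MMP13 lie apart from the FNI libraries, those of MMP3, MMP12 and MMP9 are widely scattered, and those of MMP2 and TIMP2 lie at the FNI level.

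MMP1, the interstitial collagenase that makes the first cut in fibrillar collagen, was present at 2.64, 24.3 and 0.532 CPM in FNI replicates 1, 2 and 3. It was present at 233, 249 and 329 CPM in FNI+I-125 replicates 1, 2 and 3. The groups did not overlap, and the lowest FNI+I-125 library stood far above the highest FNI library, the gland-rich replicate 2. The mean was 271 ± 51.4 CPM with the seed and 9.14 ± 13.1 CPM without it (SD, n = 3). This gave a log2 fold change of 4.89 with a standard error of 1.34, at an unadjusted p of 0.0107 and an adjusted p of 0.280 (edgeR). DESeq2 gave an adjusted p of 5.3e-04, and over all 14 alternative fits the adjusted p ran from 5.3e-04 to 0.852. The DESeq2 call of MMP1 was lost when FNI+I-125 replicate 1 was left out, where DESeq2 called 0.711% of genes higher, and when both muscle-rich libraries were. With FNI replicate 2 left out the log2 fold change was 7.41. The exact permutation test of log2(CPM + 1) gave p = 0.1, the smallest that 3 against 3 libraries allow.

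MMP13, collagenase 3, which cuts fibrillar collagen as well as aggrecan, stood at 0.703, 2.96 and 0.355 CPM in the FNI group, or 12, 47 and 6 counts. With the seed it stood at 59.7, 27.4 and 82.7 CPM, or 914, 450 and 1408 counts. Again no FNI library reached the lowest FNI+I-125 library, and FNI replicate 2 was the highest of its group. Its log2 fold change was 5.40 with a standard error of 0.90, the largest among the 10 members, at an unadjusted p of 9.5e-04 and an adjusted p of 0.280 (edgeR). DESeq2 gave an adjusted p of 7.5e-09 and kept the call in each fit with 1 library left out. With 1 library left out the edgeR log2 fold change ran from 4.93 to 6.72. The adjusted p over the 14 alternative fits ran from 7.5e-09 to 0.852.

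Both collagenases were high in all 3 FNI+I-125 libraries, also in replicate 3, where muscle transcripts were few. Replicate 3 was not free of neighbouring tissue, since its keratinocyte markers summed to 1056 CPM, beside 16.3 and 19.5 CPM in replicates 1 and 2. In FNI replicate 1 they summed to 653 CPM. The part of keratinocytes in the collagenase levels was not tested. Within the FNI+I-125 group MMP1 differed by 1.41 times between the highest and the lowest library and MMP13 by 3.02 times. With both muscle-rich libraries left out, which leaves 1 library against 3, the log2 fold change was 5.14 for MMP1 (unadjusted p = 0.0508, edgeR) and 5.91 for MMP13 (unadjusted p = 0.0062, edgeR). Among the FNI libraries the spread was wider, with a highest to lowest ratio of 45.6 for MMP1 and 8.35 for MMP13.

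MMP3, stromelysin 1, which cuts proteoglycans and laminin and can activate other proenzymes including that of MMP1, was the least abundant member by count. It had 1, 58 and 1 counts in FNI replicates 1, 2 and 3, where 3 counts is the limit that a count of 0 allows. The FNI+I-125 replicates had 736, 55 and 136 counts, or 48.1, 3.35 and 7.98 CPM. FNI replicate 2, at 3.65 CPM, lay above FNI+I-125 replicate 2, so the groups overlapped. The log2 fold change of 3.98 with a standard error of 1.75 did not pass at the unadjusted p (0.0626) or after adjustment (0.309, edgeR). It rested on single libraries, since it was 2.17 without FNI+I-125 replicate 1, 2.63 without both muscle-rich libraries and 8.22 without FNI replicate 2. Without FNI replicate 2, where DESeq2 called 2.71% of genes higher, it called MMP3 as well as MMP1 and MMP13.

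FNI+I-125 replicate 1, the library with the most MMP3, was also the library with the most neutrophil markers and inducers. The 6 neutrophil markers, led by S100A9 and CSF3R, summed to 1224 CPM there. They summed to 39.5 and 87.8 CPM in replicates 2 and 3 and to 7.51 to 84.0 CPM in the FNI group. MPO, a defining marker, had 0, 2 and 0 counts in the FNI replicates and 3, 2 and 5 in the FNI+I-125 replicates. The granulocyte receptor gene CSF3R was at 337 CPM in FNI+I-125 replicate 1 and at no more than 35.2 CPM in the others. Interleukin 1 beta (IL1B) stood at 343 CPM and oncostatin M (OSM) at 92.2 CPM in the same library. Their part in the level of MMP3 was not tested.

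MMP12, the elastase of macrophages, was at 39.4, 160 and 1.06 CPM in the FNI replicates and at 72.0, 1351 and 635 CPM in the FNI+I-125 replicates. The groups overlapped, since FNI replicate 2 lay above FNI+I-125 replicate 1. At MMP12 the log2 fold change was 3.36 with a standard error of 1.72, at an unadjusted p of 0.0979 and an adjusted p of 0.341 (edgeR). MMP12 had the widest spread of all members within a group, where the highest library exceeded the lowest by 150 times with transection alone and by 18.8 times with the seed. Its log2 fold change was 5.08 without FNI replicate 2, 2.37 without FNI+I-125 replicate 2 (unadjusted p = 0.247, edgeR) and 3.21 without both muscle-rich libraries.

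MMP9, gelatinase B, which degrades denatured collagen and the type IV collagen of basement membranes, was at 39.4, 78.7 and 1.24 CPM in the FNI group and at 89.8, 710 and 503 CPM in FNI+I-125. No overlap was seen, but the lowest FNI+I-125 library was close to the highest FNI library. MMP9 had a log2 fold change of 3.45 with a standard error of 1.42, at an unadjusted p of 0.0513 and an adjusted p of 0.296 (edgeR). With 1 library left out the log2 fold change ran from 2.86 to 4.41. MMP9 was under an unadjusted p of 0.05 without FNI replicate 3 (0.0307) or FNI+I-125 replicate 1 (0.0425), and at 0.0544 to 0.124 in the other 4 of these fits (edgeR). Without both muscle-rich libraries it was at 3.62 (unadjusted p = 0.112, edgeR), and the adjusted p ran from 0.113 to 0.852 over the 15 alternative fits.

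MMP9 and MMP12 were high in the same libraries. The ratio of MMP9 to MMP12 counts, which was chosen after the values had been seen, was 1, 0.492 and 1.17 in the FNI replicates and 1.25, 0.525 and 0.792 in the FNI+I-125 replicates, while MMP9 differed by 63.4 times and MMP12 by 150 times among the FNI libraries. ATP6V0D2, a proton pump subunit of osteoclasts and fused macrophages, was at 37.2, 79.6 and 0.591 CPM in the FNI group and at 16.1, 531 and 240 CPM in the FNI+I-125 group. It was thus highest in the libraries with the most MMP9 and MMP12, FNI+I-125 replicates 2 and 3. The lysosomal macrophage marker CD68 stood at 91.2, 133 and 16.5 CPM against 179, 497 and 309 CPM.

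The 8 macrophage markers together summed to 279 to 944 CPM in the FNI group and to 1087 to 1586 CPM in the FNI+I-125 group, without overlap, and all 8, among them CSF1R, had a positive log2 fold change. The 7 osteoclast markers summed to 270 to 837 CPM and 1048 to 2471 CPM, also without overlap, and most of that sum was CTSK, a collagen-cutting cathepsin that fibroblasts and macrophages express too. Of the osteoclast markers, OCSTAMP was at 0 in FNI replicate 3, and CALCR had 3 counts in FNI+I-125 replicate 2 and 0 in every other library. The part of these cells in the levels of MMP9 and MMP12 was not tested.

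**Figure D2:**
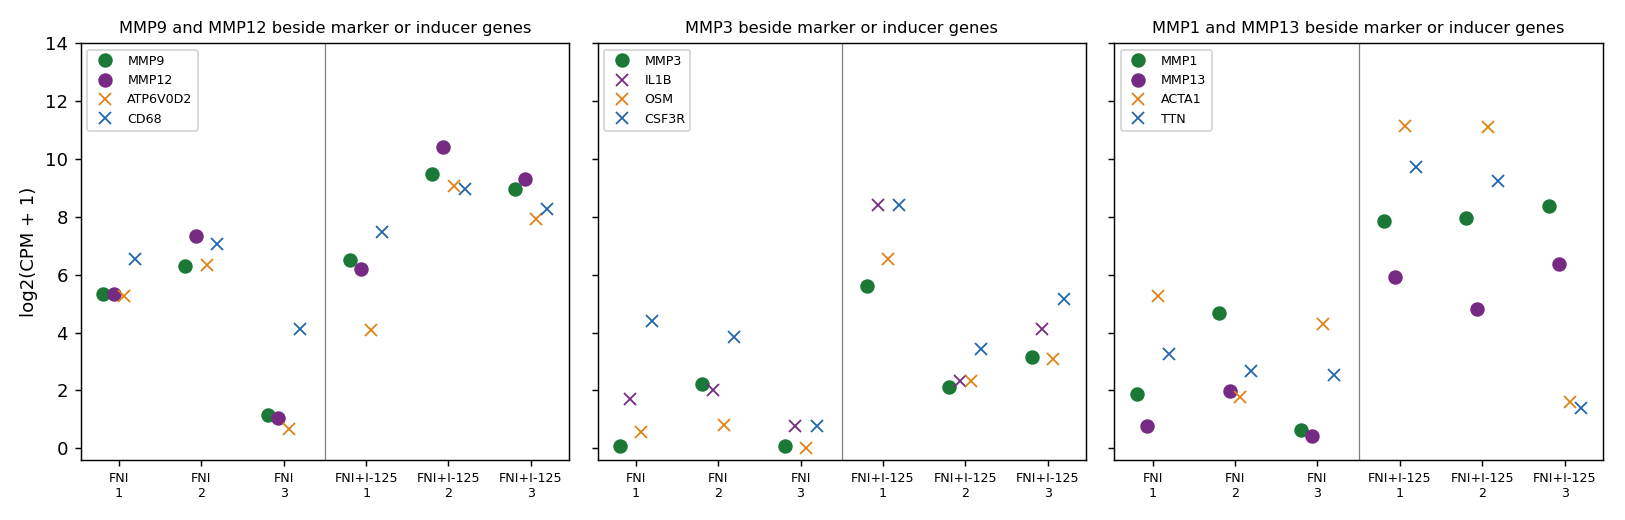
Levels as log2(CPM + 1) in each of the 6 libraries, with members as filled circles and marker or inducer genes as crosses. MMP9 and MMP12 follow ATP6V0D2 and CD68 in being highest in FNI+I-125 replicates 2 and 3, MMP3 is highest with IL1B, OSM and CSF3R in FNI+I-125 replicate 1, and MMP1 and MMP13 are high in all 3 FNI+I-125 libraries while the muscle genes ACTA1 and TTN are high in only replicates 1 and 2 of that group.

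MMP2, gelatinase A, a constitutive enzyme of fibroblasts and Schwann cells, was at 2256, 1758 and 1223 CPM in the FNI group and at 3408, 2063 and 1802 CPM with the seed. The groups overlapped, and the mean was 1745 ± 517 CPM with transection alone and 2424 ± 861 CPM with the seed (SD, n = 3). Its log2 fold change of 0.47 with a standard error of 0.36 did not pass the test, at an unadjusted p of 0.231 and an adjusted p of 0.484 (edgeR). It was 0.15 without FNI+I-125 replicate 1, 0.25 without FNI replicate 3 and 0.01 without both muscle-rich libraries.

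MMP14, a membrane-anchored MMP that activates the MMP2 proenzyme at the cell surface and cuts collagen itself, was at 551, 438 and 179 CPM in the FNI replicates. In the FNI+I-125 replicates it was at 1302, 813 and 760 CPM, above all 3 FNI libraries. The difference was a log2 fold change of 1.30 with a standard error of 0.46, at an unadjusted p of 0.0296 and an adjusted p of 0.280 (edgeR). The permutation test of log2(CPM + 1) reached its smallest value of 0.1. The unadjusted p was 0.0598 without FNI replicate 2, 0.0924 without FNI+I-125 replicate 1 and 0.0517 without FNI+I-125 replicate 2 (edgeR). Without both muscle-rich libraries the log2 fold change was 0.93 (unadjusted p = 0.243, edgeR). With FNI replicate 1 left out DESeq2 called MMP14 beside the collagenases, where it called 1.41% of genes higher.

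The proenzyme of MMP2 is a substrate of MMP14, and the log2 fold changes of the 2 genes were 0.47 and 1.30. The ratio of MMP14 to MMP2 counts within a library, chosen after the values had been seen and given without a test, was 0.244, 0.249 and 0.146 in the FNI replicates and 0.382, 0.394 and 0.422 in the FNI+I-125 replicates. Neither the size factor nor the depth of a library enters this ratio, and its FNI values all lay below its FNI+I-125 values. The fibroblast markers, which are led by the collagen genes COL1A1 and COL1A2, summed to 47993 to 96107 CPM and 67718 to 130540 CPM, with overlap.

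TIMP1, an inhibitor that is inducible by cytokines and binds the MMP9 proenzyme, was at 306, 351 and 167 CPM in the FNI group and at 749, 397 and 507 CPM in FNI+I-125. There was no overlap, with FNI replicate 2 closest to FNI+I-125 replicate 2. TIMP1 had a log2 fold change of 1.01 with a standard error of 0.36, at an unadjusted p of 0.0322 and an adjusted p of 0.280 (edgeR). It ranged from 0.72 without FNI+I-125 replicate 1 to 1.22 without FNI replicate 2. The unadjusted p was at 0.0560 to 0.101 in 4 of the 6 fits with 1 library left out, those without FNI replicate 1 or 3 or FNI+I-125 replicate 1 or 3 (edgeR). Without both muscle-rich libraries the log2 fold change was 0.85 (unadjusted p = 0.152, edgeR).

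TIMP2, a constitutive inhibitor that also takes part in the activation of MMP2 by MMP14, was at 1360, 1036 and 965 CPM in the FNI group and at 1121, 1363 and 1260 CPM in the FNI+I-125 group. It was the most even of the 10 members, with a highest to lowest ratio of 1.41 and 1.22 within the groups. Its log2 fold change was 0.16 with a standard error of 0.21 and an adjusted p of 0.692 (edgeR). With 1 library left out it ran from 0.04 without FNI replicate 3 to 0.32 without FNI replicate 1. It was 0.10 without FNI replicate 2 and 0.06 without FNI+I-125 replicate 2. TIMP3, the inhibitor that is bound to the matrix and also blocks ADAM17, was at 214, 149 and 388 CPM in the FNI group and at 119, 205 and 168 CPM in the FNI+I-125 group. It was the only member with a negative log2 fold change, -0.61 with a standard error of 0.39, which did not pass the test at an adjusted p of 0.426 (edgeR). Without FNI replicate 3, the library richest in Schwann cell transcripts, it was -0.16.

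**Figure D3:**
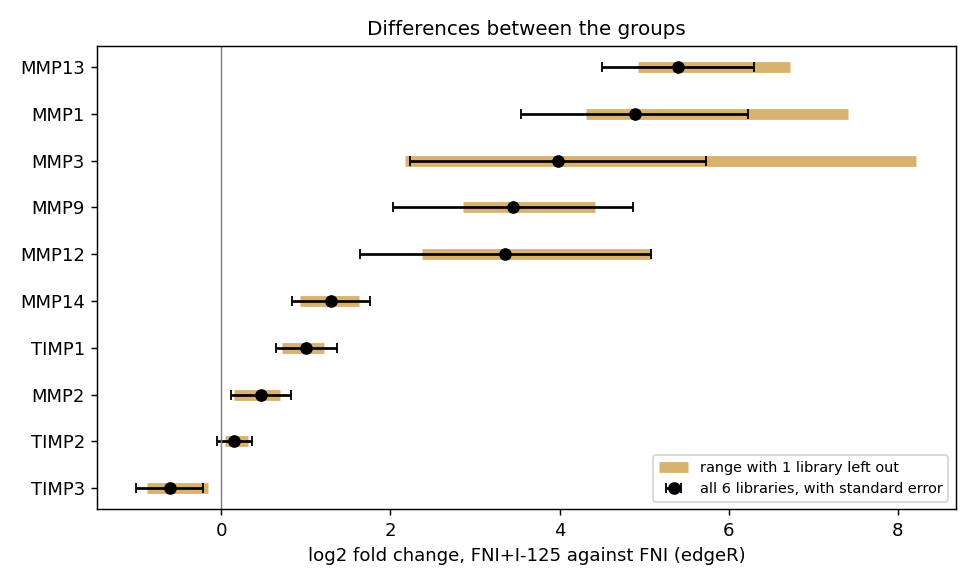
The log2 fold change of each member in the FNI+I-125 group against the FNI group, with the edgeR estimate and its standard error in black and the range of the estimates with 1 library left out as a wide bar. MMP13 and MMP1 are at 5.40 and 4.89, MMP3, MMP9 and MMP12 lie between 3.36 and 3.98 with large errors, and MMP14 and TIMP1 are close to 1 while MMP2, TIMP2 and TIMP3 lie within 0.61 of 0.

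The ratio of each MMP to TIMP1 was then taken within each library, where it does not depend on the scaling between libraries. Since the transcript lengths were not given, the level of a ratio does not compare 2 genes, but its difference between libraries can be read. For every 100 TIMP1 counts there were 0.861, 6.92 and 0.319 MMP1 counts in the FNI replicates and 31.1, 62.8 and 64.9 in the FNI+I-125 replicates. For MMP13 there were 0.229, 0.844 and 0.213 against 7.97, 6.90 and 16.3. The ratios of both collagenases did not overlap between the groups, with a difference of the mean log2 ratio of 5.31 for MMP1 and 4.74 for MMP13, standard errors of 1.33 and 0.73, and an exact permutation p of 0.1 for each. With 1 library left out these differences ran from 4.36 to 6.54 for MMP1 and from 4.36 to 5.36 for MMP13.

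For MMP9 there were 12.9, 22.4 and 0.744 counts per 100 TIMP1 counts in the FNI group and 12.0, 179 and 99.2 in the FNI+I-125 group. FNI+I-125 replicate 1 thus lay below FNI replicates 1 and 2, so that the MMP9 difference without overlap in CPM did not extend to the ratio. For MMP12 there were 12.9, 45.6 and 0.638 against 9.60, 340 and 125, again with FNI+I-125 replicate 1 among the FNI values. The differences of the mean log2 ratio were 3.30 for MMP9 and 3.35 for MMP12, both at an exact permutation p of 0.3, and 4.13 for MMP3 at p = 0.2. All 3 moved with single libraries. The difference was 1.81 for MMP9 and 1.62 for MMP12 without FNI replicate 3, and 4.46 and 4.83 without FNI+I-125 replicate 1. For MMP3 it ran from 3.12 without FNI replicate 1 to 5.72 without FNI replicate 2.

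MMP14 and TIMP1 had log2 fold changes of 1.30 and 1.01, and their ratio overlapped between the groups. There were 180, 125 and 107 MMP14 counts per 100 TIMP1 counts in the FNI group and 174, 205 and 150 in the FNI+I-125 group, a log2 difference of 0.38 with a standard error of 0.26 (exact permutation p = 0.3). It was 0.22 without FNI replicate 3 and 0.59 without FNI replicate 1. MMP2 was the only MMP with a lower mean ratio in the FNI+I-125 group, with 737, 501 and 733 counts against 455, 520 and 356 and a log2 difference of -0.56 (exact permutation p = 0.2). When the 3 TIMPs were summed, the difference for MMP2 was 0.20, in the other direction, and that for MMP14 was 1.14 (exact permutation p = 0.1). Against TIMP2, the ratios of MMP1, MMP13, MMP9 and MMP14 were higher in every FNI+I-125 library, with log2 differences of 6.17, 5.60, 4.16 and 1.24 (exact permutation p = 0.1, adjusted 0.175 over 7 ratios). The ratios of MMP9 and MMP14 thus overlapped between the groups against TIMP1 and not against TIMP2. After adjustment over the 7 ratios to TIMP1 the p was 0.3 for each.

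**Figure D4:**
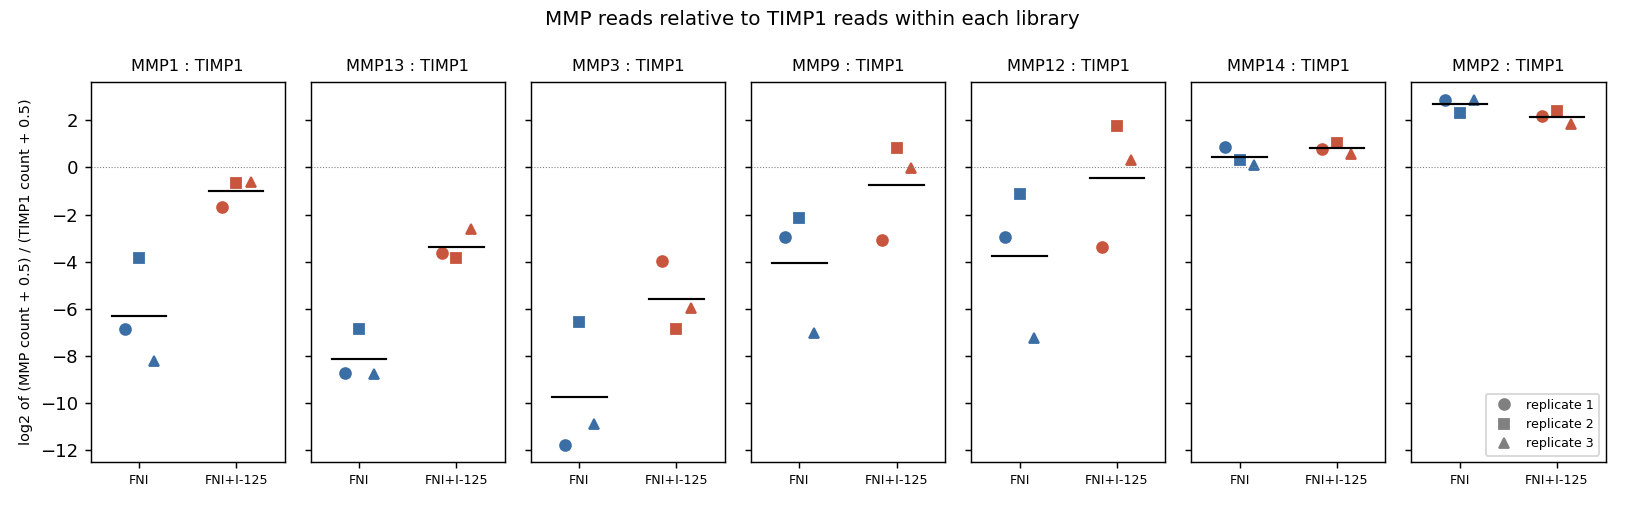
The log2 ratio of each MMP to TIMP1 within each library, with 0.5 added to both counts, for FNI in blue and FNI+I-125 in red, with a black line at the mean. The groups are apart for MMP1 and MMP13, and FNI+I-125 replicate 1 lies among the FNI libraries for MMP9 and MMP12.

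The other inhibitors were set against TIMP1 as well. For every 100 TIMP1 counts there were 69.8, 42.4 and 232 TIMP3 counts in the FNI replicates and 15.9, 51.5 and 33.2 in the FNI+I-125 replicates, with overlap (exact permutation p = 0.2). TIMP4, an inhibitor that is not among the 10 members, was at 5.10, 7.75 and 18.4 CPM in the FNI group and at 1.31, 2.68 and 4.40 CPM in the FNI+I-125 group, without overlap. Its log2 fold change was -1.89, at an unadjusted p of 0.0264 and an adjusted p of 0.280 (edgeR). RECK, a membrane-anchored inhibitor of MMPs, was also lower without overlap, at 51.4, 42.3 and 133 CPM against 21.3, 35.9 and 32.3 CPM and a log2 fold change of -1.34 (unadjusted p = 0.0326, edgeR). Both of the 2 other inhibitors tested were thus lower at an unadjusted p under 0.05, beside 7.73% of all genes, and both were highest in FNI replicate 3, the library richest in Schwann cell transcripts. Without that library the log2 fold change was -1.22 for TIMP4 (unadjusted p = 0.0793, edgeR) and -0.67 for RECK (unadjusted p = 0.0482, edgeR). Without FNI+I-125 replicate 1, 2 or 3 the unadjusted p of RECK was 0.0990, 0.0527 and 0.0672 (edgeR). That of TIMP4 was 0.0669, 0.0699 and 0.0215 in the same fits (edgeR). The part of the Schwann cell share in these levels was not tested.

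Of the 9 other MMPs tested, 5 had a positive and 4 a negative log2 fold change. Their median was 0.30, beside 0.01 for all genes. At an unadjusted p under 0.05 none was higher, beside 9.23% of all genes, and 1 was lower, beside 7.73%. That gene was the membrane-type MMP15, which was lower without overlap, at 140, 111 and 252 CPM in the FNI group and 39.5, 67.6 and 72.3 CPM in the FNI+I-125 group (log2 fold change -1.49, unadjusted p = 0.0082, edgeR). Without FNI replicate 3 its log2 fold change was -1.09 (unadjusted p = 0.0129, edgeR). MMP15 and MMP14, which belong to the same class of enzymes, therefore had log2 fold changes of opposite sign. MMP19 was at 66.6, 65.8 and 17.4 CPM against 107, 77.4 and 153 CPM, with a log2 fold change of 1.17 (unadjusted p = 0.0745, edgeR).

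MMP1, MMP3, MMP12 and MMP13 are neighbours in the rabbit genome. In the RefSeq annotation of assembly mOryCun1.1 they follow each other, without another protein-coding gene between them, at the end of a run of 10 genes that starts with MMP7. Of the other genes of this run, MMP27 was tested, with a log2 fold change of -0.26. MMP7 had 139, 9 and 0 counts in the FNI replicates and 3, 0 and 6 counts in the FNI+I-125 replicates, while MMP10, which lies next to MMP1, had 0, 1 and 0 against 28, 1 and 52 counts. Both were too low for the edgeR filter. DESeq2, which ran without that filter, called MMP10 (adjusted p = 0.0275) and not MMP7 (adjusted p = 0.212), and the MMP10 counts came from FNI+I-125 replicates 1 and 3.

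In the plasminogen system, the serine protease cascade that activates several proMMPs, 3 of 7 genes were higher and none was lower at an unadjusted p under 0.05, beside 9.23% and 7.73% of all genes. The median log2 fold change of the list was 1.04. PLAU, the urokinase that turns plasminogen into plasmin, was at 92.2, 100 and 58.4 CPM in the FNI group and at 233, 145 and 137 CPM in the FNI+I-125 group (log2 fold change 1.04, unadjusted p = 0.0129, edgeR). SERPINE2, a serpin, had a log2 fold change of 0.10.

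Of the 17 ADAM and ADAMTS proteases, relatives of the MMPs that shed membrane proteins or cut proteoglycans and procollagens, 5 were higher and none was lower at an unadjusted p under 0.05, beside 9.23% and 7.73% of all genes. ADAM8, a protease of leukocytes, was at 18.3, 27.1 and 10.2 CPM in the FNI group and at 110, 102 and 41.0 CPM in the FNI+I-125 group (log2 fold change 2.19, unadjusted p = 0.0050, edgeR). ADAM9 had a log2 fold change of 0.80 (unadjusted p = 0.0330, edgeR), which was 0.52 without FNI replicate 3, and the procollagen peptidase ADAMTS2 one of 0.25. The median of this list was 0.26.

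Of the 4 cathepsins tested, lysosomal proteases that can cut matrix outside the cell, 3 were higher at an unadjusted p under 0.05, beside 9.23% of all genes, and all 4 had a positive log2 fold change with a median of 1.29. CTSB was at 863, 1245 and 580 CPM against 1248, 3627 and 1771 CPM (log2 fold change 1.31), CTSD had a log2 fold change of 1.28 with overlap, and CTSS, a cathepsin of antigen-presenting cells, one of 1.95. Like MMP9 and MMP12, all 3 had their highest level in FNI+I-125 replicate 2. Without that library the log2 fold change was 0.72 for CTSB (unadjusted p = 0.122, edgeR) and 1.26 for CTSS (unadjusted p = 0.118, edgeR).

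Of the 14 substrates, 1 was higher and 1 lower at an unadjusted p under 0.05, beside 9.23% and 7.73% of all genes, and the median log2 fold change was 0.30. The fibrillar collagens, which MMP1 and MMP13 cut, had overlapping groups at the level of RNA. COL1A1 stood at 53726, 40705 and 23012 CPM in the FNI group and at 76521, 44670 and 37942 CPM in the FNI+I-125 group (log2 fold change 0.44, unadjusted p = 0.448, edgeR), and COL3A1 had a log2 fold change of 0.32. LAMA2, the laminin chain of the Schwann cell basal lamina, was the gene with the smallest p, at 409, 344 and 480 CPM against 168, 265 and 226 CPM without overlap (log2 fold change -0.91, unadjusted p = 0.0068, edgeR). Without FNI replicate 3, its highest library, it was -0.80 (unadjusted p = 0.0182, edgeR). The gene higher at an unadjusted p was the proteoglycan VCAN, which was named after its values had been seen, with a log2 fold change of 2.12.

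All 6 surface partners had a positive log2 fold change, with a median of 0.68, and 2 of the 6 were higher at an unadjusted p under 0.05, beside 9.23% of all genes. These were ITGB3, an integrin chain, at 43.8, 54.0 and 25.2 CPM against 100, 108 and 99.3 CPM (log2 fold change 1.32, unadjusted p = 0.0033, edgeR), and FURIN, the convertase that activates MMP14, with 1.12. LRP1, the receptor that clears MMPs and TIMPs, had a log2 fold change of 0.26, and CD63, which binds TIMP1, one of 0.38.

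Cytokines known as inducers of MMPs, though not each of every MMP or in every cell type, formed a further list. Of 5 tested, 4 (IL1B, TNF, OSM and TGFB1) were higher at an unadjusted p under 0.05, beside 9.23% of all genes. All 4 were without overlap, beside 14.8%, and the median log2 fold change was 3.43. OSM, TNF and IL6 each had under 10 counts in at least 1 FNI library. They passed the filter only together with FNI+I-125 libraries, so these counts depended in part on the difference itself. IL1B was at 2.28, 3.02 and 0.709 CPM in the FNI group and at 343, 4.02 and 16.4 CPM in the FNI+I-125 group (log2 fold change 5.91, unadjusted p = 0.0189, edgeR). OSM was at 0.469, 0.756 and 0 CPM against 92.2, 4.02 and 7.51 CPM (log2 fold change 6.39, unadjusted p = 0.0098, edgeR), and TGFB1 was at 36.1, 36.7 and 15.2 CPM against 72.1, 62.9 and 56.1 CPM (log2 fold change 1.12). IL1B and OSM were both highest in FNI+I-125 replicate 1, without which their log2 fold changes were 2.35 and 3.80. Their part in the levels of the collagenases was not tested. A count of 0 for OSM in FNI replicate 3 allows up to 3 counts, or 0.177 CPM, for counting error only.

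Transcription factors of the AP-1 and ETS families bind the promoters of several MMP genes. All 8 tested had a positive log2 fold change, with a median of 0.69, and 3 were higher at an unadjusted p under 0.05, beside 9.23% of all genes, although none of the 8 was without overlap. FOSL2 and JUN, the most abundant by CPM, had log2 fold changes of 0.84 and 0.35. FOSL1, the gene with the smallest p, was at 0.820, 0.441 and 0.236 CPM against 3.20, 2.01 and 0.704 CPM (log2 fold change 1.96, unadjusted p = 0.0373, edgeR). With 14, 7 and 4 counts in the FNI group, it too passed the filter only together with FNI+I-125 libraries.

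**Figure D5:**
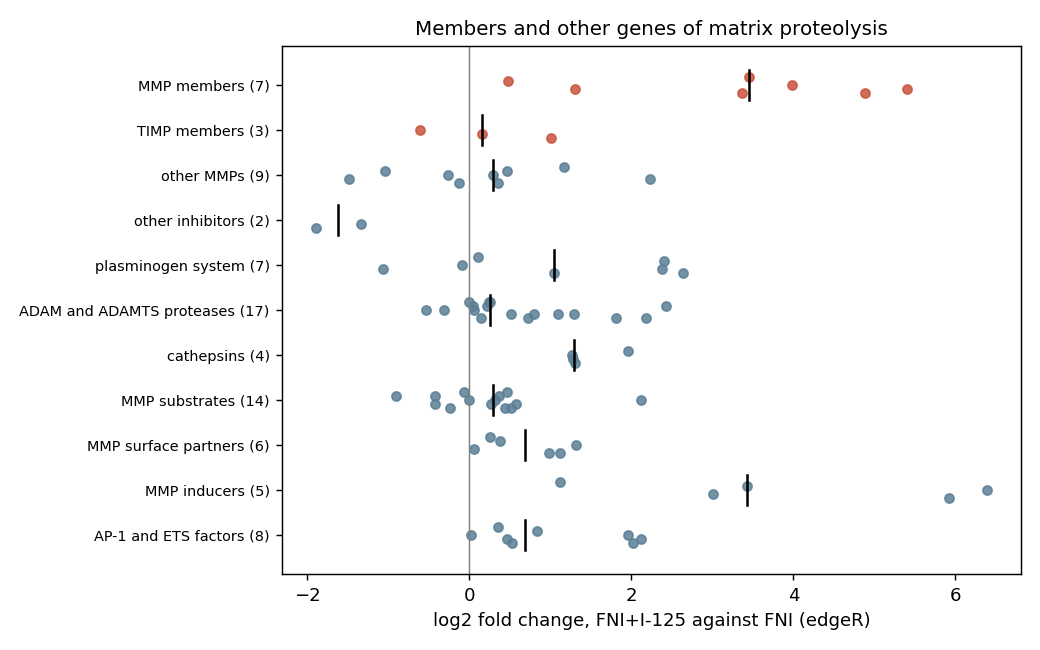
The log2 fold change in the FNI+I-125 group against the FNI group of the tested members, in red, and of the tested genes of each other list, in blue, with the number of genes in brackets and a black line at the median. The medians are 3.43 for the inducers, 1.29 for the cathepsins and 1.04 for the plasminogen system, while the other inhibitors lie at -1.62.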

How the data were processed

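Per the labels, mRNA of 6 rabbit facial nerves was sequenced as stranded paired-end libraries on an Illumina HiSeq instrument. The submitters' processing notes name HISAT2 and OryCun2.0. The counting program, its strand setting and the annotation are not given in the sources used here. The authors deposited raw counts, whole reads per gene without normalization, in 1 file per library, and replicates were not pooled. The files list genes by symbol or LOC number. Of 2992 LOC numbers, 542 were given a symbol from the RefSeq table of assembly mOryCun1.1, a build other than that of the files, so no coordinates are printed. That table lists MMP1 also as a synonym of MMP14, and the files hold both rows. For 25 genes a spreadsheet date stands in place of the name, with 0.188% of counts. These were tested but not named. No transcript lengths or sequences were used here, so levels are not compared between genes, and reads of overlapping or antisense genes could not be told apart.

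The tests ran in R 4.3.3, on the counts as deposited, with edgeR 4.0.16 (filterByExpr with a minimum count of 10, TMM factors from 0.923 to 1.06, glmQLFit and glmQLFTest), limma 3.58.1 and DESeq2 1.42.0, and p-values were adjusted by the Benjamini-Hochberg method over the 14003 genes tested. Tests were two-sided. The biological coefficient of variation was 43.0%. The standard error of a log2 fold change was its size divided by the square root of F. The paper's thresholds were used (adjusted p under 0.05, absolute log2 fold change of at least 1.5). Ratios used counts with 0.5 added and an exact permutation test over all 20 assignments, whose smallest p is 0.1. Each library is 1 rabbit, and p-values measure the spread between these 6. The script was tested on simulated data.

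The text names every member, the 2 genes with the highest mean CPM and the gene with the smallest p of each pathway list, and the 2 highest of each marker list. A few genes named by it are not reported here. CALCR, OCSTAMP, MPO, VCAN, FURIN, TNF, IL6, MMP7, MMP10 and MMP27 were named after their values had been seen. Members and lists were chosen with earlier results of these data known. The alternatives were DESeq2, limma-voom, another quasi-likelihood method, other normalizations and filters, a replicate block, other pseudocounts, the sum of 3 TIMPs and each library left out. DESeq2 with each library left out and the fits without both muscle-rich libraries, and those of the list genes without single libraries, were chosen after seeing the data.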

Additional observations from a re-analysis of the deposited data

How the results depend on the processing

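Each log2 fold change of the 10 members kept its direction in every alternative run for it, 14 or 15 per member, and edgeR and limma-voom called 0 members at an adjusted p in all of theirs. DESeq2 called 2 members (MMP1 and MMP13) at an adjusted p and 5 at an unadjusted p (with MMP3, MMP9 and MMP12), all with the log2 fold threshold of 1.5, as in all counts here. DESeq2 with 1 library left out called 1 to 3 members: 3 without FNI replicate 1 (with MMP14), 3 without FNI replicate 2 (with MMP3), 1 without FNI+I-125 replicate 1 (MMP13), and 2 in each of the other fits, beside 0.711% to 2.71% of all genes higher. Without both muscle-rich libraries DESeq2 called 1 member (MMP13), beside 0.149% of all genes higher, and 1 (MMP13) passed the unadjusted edgeR test, with 1 library against 3 that is assumed to vary like the others. With a filter of at least 10 counts in every library, MMP1, MMP13 and MMP3 no longer entered the test. The 1 member then at an unadjusted p of edgeR was MMP9, at 0.0467 beside 0.0513 in the main fit. With each library left out in turn, edgeR gave 2 to 3 members at an unadjusted p. The causes of the differences between these fits were not tested. The MMP2 to TIMP1 difference was -0.56, ran from -0.75 to -0.41 with 1 library left out, and was 0.20 with the sum of TIMP1, TIMP2 and TIMP3, since TIMP2 makes up most of that sum. With a replicate block edgeR called 0 members at an adjusted p and 2 at an unadjusted p. The deviations of same-numbered libraries correlated at 0.05, -0.19 and -0.14, and those of differently numbered libraries at -0.29 to 0.30. Values this few and this scattered cannot settle whether same-numbered libraries were paired. MMP3 had 1 count in each of 2 FNI libraries, and MMP1 and MMP13 had 9 and 6 counts in FNI replicate 3. The parts of counting error and of the spread between rabbits were not tested.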
